A study of Homo sapiens with 23 samples.

Results

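The genes described here are 10 components of interleukin 6 (IL6) family signalling, namely the ligands IL6, LIF and IL11, the receptor subunits IL6R, IL6ST and OSMR, the transcription factor STAT3, and the feedback inhibitors SOCS1, SOCS2 and SOCS3. They were taken by symbol and NCBI Gene ID from a table of 21658 genes, which holds all 10 of them. IL6 family cytokines bind a ligand-specific receptor together with IL6ST (gp130), the signalling subunit that the whole family shares. The receptor-bound JAK kinases then phosphorylate STAT3, which moves to the nucleus and switches on target genes, among them SOCS3, whose product blocks the receptor complex. In ovarian carcinoma, IL6 and LIF are known as cytokines made by the tumor cells themselves as well as by the cells around them.

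The table holds RNA-seq values of 23 libraries from 4 established ovarian cancer cell lines, Kuramochi, OVSAHO, OV-90 and EFO-21. Each line was sequenced in its parental form and as a derivative resistant to prexasertib, an inhibitor of the checkpoint kinase CHK1. The derivative was raised by stepwise increase of the drug concentration. Each group has 3 libraries, given as biological replicates, except parental OV-90 with 2. Whether the replicates of a resistant line come from 1 selection or several, whether a derivative is a clone or a pool, its final drug concentration, and whether the drug was present at harvest are not given in the sources used here. Values are on a log2 scale after quantile normalization by the authors and were not scaled to gene length, so levels are compared between libraries and not between genes. In bulk RNA, a larger share of cells that express a gene and more RNA per cell cannot be told apart. The keratins KRT8 (8.67 to 11.47) and KRT18 (8.92 to 12.45) were high in every library. Others of the 10 epithelial markers were low in some lines. KRT7 was at 1.73 to 4.34 outside OVSAHO, and KRT19 was at 3.13 to 5.76 in OVSAHO. In OV-90, MUC16 was at 0.66 to 1.37 and MSLN at -0.07 to 1.22. The pan-leukocyte gene PTPRC was at 0.41 to 4.65. Some other genes of the 7-gene leukocyte list were higher, with LYZ at 11.73 to 12.46 in OV-90, CD68 at up to 9.82 in EFO-21 and CD14 at up to 6.94, and the summed level of that list was 27.7 to 34.8 in parental and 18 to 20.6 in resistant OVSAHO. The Müllerian marker PAX8 had group means of 8.44 to 9.37 in the other parental lines but 2.10 in parental OV-90. WT1, a marker of serous carcinoma, was at 1.87 in parental OV-90 and 1.03 in parental EFO-21. KRT19, EPCAM and other epithelial markers were lower in some resistant groups, and the summed level of the 10 epithelial markers was 71.9 to 74.3 in parental and 55.8 to 56.5 in resistant Kuramochi, and 87.1 to 87.6 against 71.1 to 72.3 in OVSAHO. The part of these marker levels in the results below was not tested. The parental OV-90 libraries stood apart from each other, with a Pearson correlation across genes of 0.952, against 0.971 to 0.988 between libraries within each of the other 7 groups, so OV-90 values are also given with single libraries left out.

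The promoters of IL6 and IL11 are shown because these are the ligands whose RNA rose with resistance, IL11 in 2 of the lines. Each is the 250 bases before the transcription start from RefSeq (build GRCh38.p14), written 5′ to 3′ on the strand of the gene, for IL6 chr7:22726950-22727199 on the plus strand and for IL11 chr19:55370464-55370713 on the minus strand. Capitals mark an NF-kB motif in IL6 and an AP-1 motif (TGANTCA) in IL11, searched on both strands.
IL6: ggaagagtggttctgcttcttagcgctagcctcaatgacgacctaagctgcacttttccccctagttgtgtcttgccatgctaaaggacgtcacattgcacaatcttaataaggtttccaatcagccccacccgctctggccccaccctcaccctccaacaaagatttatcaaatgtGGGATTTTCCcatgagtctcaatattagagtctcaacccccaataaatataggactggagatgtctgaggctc
IL11: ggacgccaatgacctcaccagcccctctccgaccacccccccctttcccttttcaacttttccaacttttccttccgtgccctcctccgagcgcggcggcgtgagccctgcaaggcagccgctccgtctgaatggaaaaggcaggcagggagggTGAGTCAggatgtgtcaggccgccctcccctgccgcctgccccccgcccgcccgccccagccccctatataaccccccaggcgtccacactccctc
The NF-kB motif begins 73 bases before the start of IL6, and 5.21% of 35116 promoter windows of this length hold one. The AP-1 motif of IL11 begins 96 bases before its start and stands in 6.57% of all windows. Windows were available for 8 of the 10 genes (9 windows, with 2 starts for SOCS3), all but LIF and SOCS2. The STAT motif TTCNNNGAA was in none of the 9 and in 6.57% of all windows, and the GC box GGGCGG was in windows of 5 of the 8 genes and in 42.6% of all. A match is a match of letters and says nothing of binding, and no match says only that these letters are not in this window.

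A gene was counted as called when its limma adjusted p over all 21658 genes was under 0.05 and its resistant and parental means differed by at least 2-fold (1 on the log2 scale). Over 40 tests (10 genes in 4 lines), 7 were called higher and 1 lower in the resistant line. In Kuramochi, IL6, IL11 and SOCS2 rose and none fell, which is 30% of the genes against 22.5% of all genes called (11.8% higher and 10.6% lower). SOCS2 alone rose in OVSAHO, 10% against 7.76% of all genes (3.93% higher and 3.83% lower). In OV-90, IL11 and IL6ST rose, 20% against 16.1% of all genes (9.5% higher and 6.56% lower). SOCS2 rose and LIF fell in EFO-21, 20% against 14.3% of all genes (7.11% higher and 7.15% lower). In each line the number called was thus within 1 gene of what the share among all genes would give for 10 genes. Without regard to fold, 6 genes had an adjusted p under 0.05 in Kuramochi (46.9% of all genes), 3 in OVSAHO (33.3%), 3 in OV-90 (36%) and 5 in EFO-21 (48.4%). The median log2 change of the 10 genes was 0.72 in Kuramochi, 0.26 in OVSAHO, 0.28 in OV-90 and -0.36 in EFO-21, against -0.02, 0.00, -0.06 and 0.01 for all genes. The study lists SOCS2, IL6, IL11, JAK2, STAT4 and CISH for these lines from the same libraries, so their changes here are not independent evidence of direction.

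**Figure D1:**
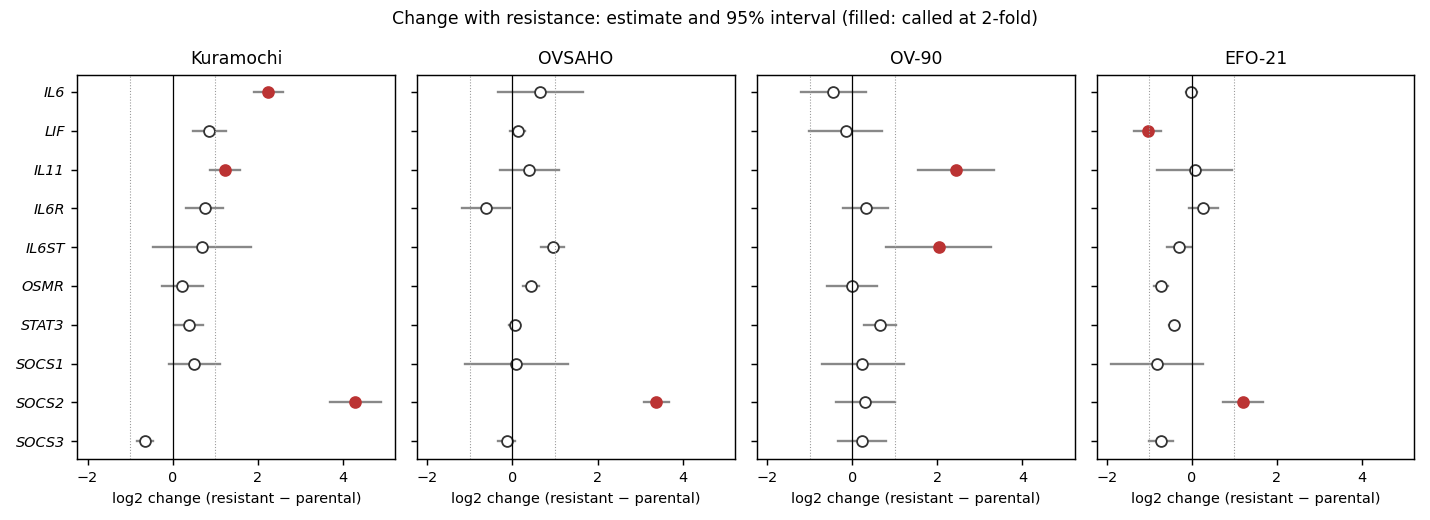
Log2 change (resistant minus parental) of each gene in each line on the x axis, with the gene on the y axis, horizontal bars for limma's 95% interval, filled points for called genes and dotted lines at a 2-fold change. SOCS2 lies far to the right in Kuramochi (4.29) and OVSAHO (3.37), while in OV-90 its interval (-0.38 to 1.01) spans 0.

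IL6 (chromosome 7, 22765503 to 22771621 on the plus strand in GRCh37) encodes the founding cytokine of the family. Its value in the parental Kuramochi libraries was 4.70, 4.87 and 4.96, and in the resistant ones 7.17, 6.91 and 7.20. The resistant libraries all lay above the parental ones, and the log2 change was 2.25 (SE 0.14, adjusted p = 6.63e-05), a 4.76-fold rise. In EFO-21 the parental libraries were at 7.42, 7.53 and 7.57 and the resistant ones at 7.48, 7.47 and 7.52. EFO-21 therefore held IL6 at a high and overlapping level before and after selection, with a log2 change of -0.02 and a 95% interval of -0.14 to 0.11. In OV-90, values of 2.58 and 2.27 stood against 2.12, 1.56 and 2.28 (log2 change -0.44, adjusted p = 0.276). The value of 1.56 lay at or below the 10th percentile of its library, so the size of this change is uncertain. All 6 OVSAHO libraries, at -0.08, 1.22 and 0.70 and at 1.73, 0.72 and 1.33, lay at or below the 10th percentile of their library (1.70 to 1.87 over the libraries). A difference between values that low does not measure a fold change, and IL6 was near the floor of the table in OVSAHO with or without resistance. The rise brought IL6 in resistant Kuramochi (mean 7.09) close to, but still below, resistant EFO-21 (7.49), whose range its own did not reach. The first 1730 bases of IL6 overlap STEAP1B on the opposite strand, and STEAP1B was at 4.96 ± 0.20 in parental and 4.56 ± 0.32 (SD, n = 3) in resistant Kuramochi (adjusted p = 0.186).

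LIF (chromosome 22, 30636442 to 30642748, minus strand) encodes leukemia inhibitory factor, which signals through LIFR and IL6ST. In EFO-21 its parental libraries were at 8.04, 8.16 and 7.93 and its resistant libraries at 6.97, 6.79 and 7.26. All resistant libraries lay below all parental ones, a fall by 1.04 on the log2 scale (SE 0.13, adjusted p = 0.00137) that lies just past the 2-fold line. Without parental library 11 the log2 change was -0.98 and without resistant library 23 it was -0.93, both under 2-fold with adjusted p of 0.00712 and 0.00409. Parental EFO-21 was the group with the highest LIF, and its resistant derivative had the level of OVSAHO (7.06 ± 0.09 resistant, 6.94 ± 0.07 parental). Kuramochi had a change of the opposite sign, from 6.87, 6.82 and 6.34 to 7.58, 7.43 and 7.61, without overlap and with a log2 change of 0.86 (SE 0.16, adjusted p = 0.00536) that was below 2-fold. In OV-90, LIF was low in both forms (3.98 ± 0.02, n = 2, and 3.83 ± 0.47, n = 3).

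IL11 (chromosome 19, 55875750 to 55881831, minus strand) encodes interleukin 11, which signals through IL11RA and IL6ST. It was the only one of the 3 ligands that rose in 2 lines. The parental Kuramochi libraries were at 3.94, 3.92 and 3.86 and the resistant ones at 5.11, 5.14 and 5.13, a log2 change of 1.22 (SE 0.15, adjusted p = 0.000934). In OV-90 the parental libraries were at 2.75 and 3.56 and the resistant ones at 5.51, 5.93 and 5.33, a log2 change of 2.44 (SE 0.34, adjusted p = 0.0158). In both lines every resistant library lay above every parental one, and resistant OV-90 reached the highest level of IL11 among the 8 groups (5.59). The OV-90 call was lost when any 1 of the resistant libraries 13, 14 or 15 was left out (log2 change 2.27 to 2.56, adjusted p 0.068 to 0.0786), where the share of all genes called in OV-90 dropped to 1.43% to 1.96%. IL11 overlapped between the groups of OVSAHO (2.64 ± 0.31 and 3.05 ± 0.43, adjusted p = 0.333) and of EFO-21 (2.48 ± 0.45 and 2.55 ± 0.55, adjusted p = 0.897). The intervals of the change there, -0.30 to 1.10 and -0.81 to 0.95, still include changes near 2-fold.

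**Figure D2:**
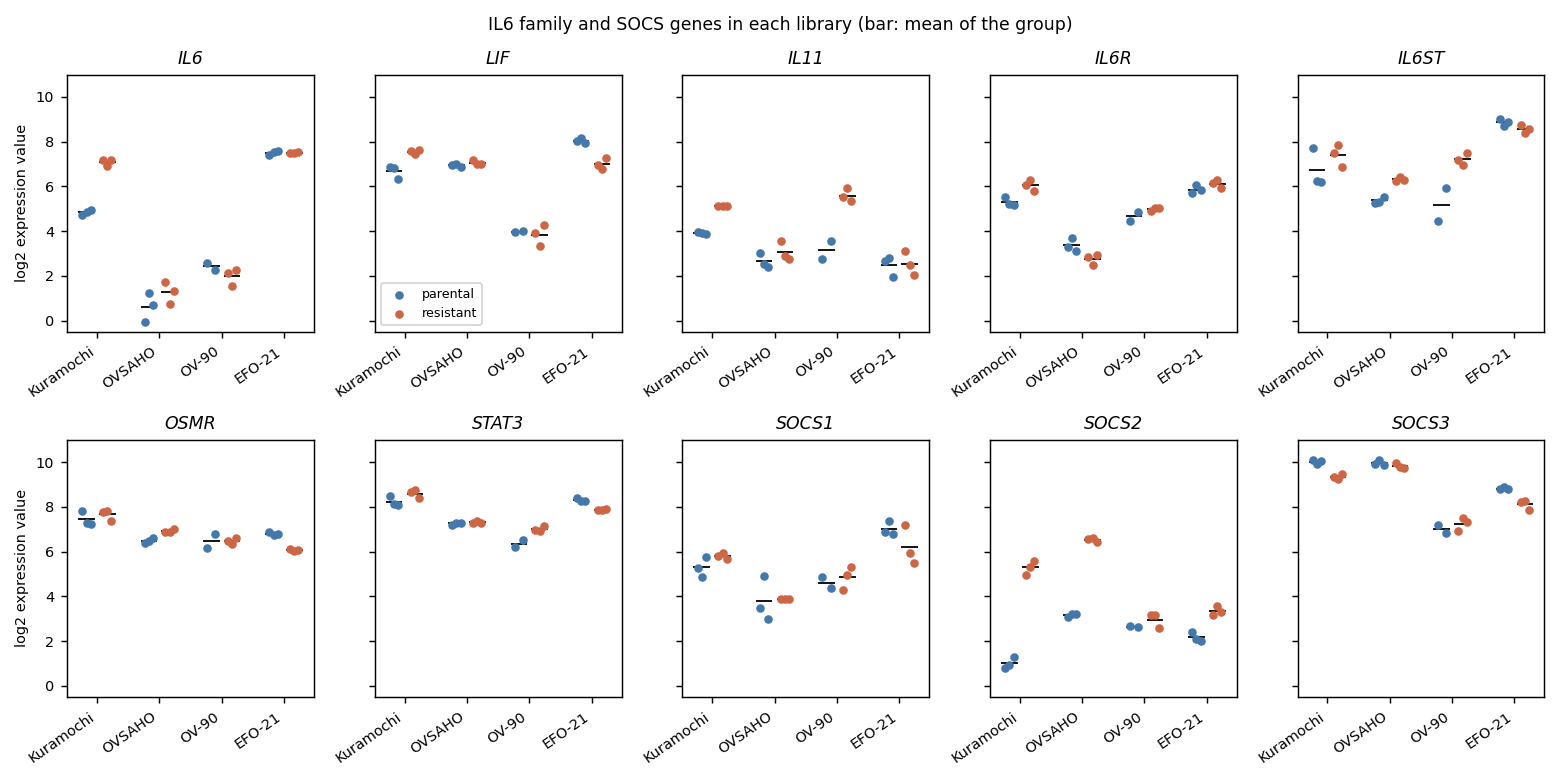
Log2 expression value (y axis) of each of the 10 genes in each library, by cell line (x axis), with parental libraries in blue, resistant libraries in orange and a bar at the mean of the group. IL6 runs from group means of 0.61 in parental OVSAHO to 7.51 in parental EFO-21, and SOCS2 from 1.01 in parental Kuramochi to 6.53 in resistant OVSAHO.

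Of the receptor subunits, IL6ST was called in 1 line, and IL6R and OSMR in none. IL6ST (chromosome 5, 55230923 to 55290850, minus strand) had values of 4.43 and 5.91 in parental OV-90 and of 7.16, 6.97 and 7.49 in resistant OV-90. The groups did not overlap and the log2 change was 2.03 (SE 0.47, adjusted p = 0.0343), but the parental libraries themselves differed by more than 2-fold. Without parental library 2 the log2 change was 1.29 (adjusted p = 0.0342) and without parental library 3 it was 2.77 (adjusted p = 0.00463). Leaving out resistant library 13, 14 or 15 ended the call (1.89 to 2.15, adjusted p 0.0902 to 0.116). In OVSAHO, IL6ST went from 5.27, 5.32 and 5.54 to 6.23, 6.44 and 6.30, a shift of 0.95 (SE 0.11, adjusted p = 0.00208) just below 2-fold and again without overlap. Without parental library 9 this change was 1.03 and was called (adjusted p = 0.00388). In Kuramochi the parental libraries were at 7.72, 6.23 and 6.18 and the resistant ones at 7.50, 7.86 and 6.85. Library 4 alone made these groups overlap. Without it the log2 change went from 0.69 (adjusted p = 0.276) to 1.19 (adjusted p = 0.022). EFO-21 had the highest IL6ST of the lines, 8.87 ± 0.15 in the parental and 8.56 ± 0.18 in the resistant form (adjusted p = 0.0674).

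IL6R (chromosome 1, 154377669 to 154441926, plus strand), the subunit that binds IL6, ranged from 2.47 to 6.30 over the 23 libraries. Its log2 change was 0.75 in Kuramochi with an adjusted p of 0.016, but -0.62 in OVSAHO with 0.089, and it was 0.32 and 0.27 in OV-90 and EFO-21 (adjusted p = 0.256 and 0.163). Without library 5, 6, 16 or 17 the adjusted p in Kuramochi was 0.0526 to 0.0593. The antisense gene IL6R-AS1 overlaps the start of IL6R, and it was called higher in Kuramochi (1.82, adjusted p = 0.00738). Its parental level there, 1.93 ± 0.49, lay near the floor of the table, so this fold is uncertain. In OV-90 it was called lower (-3.69, adjusted p = 0.0323), to a mean of 0.85 at the floor of the table, which gives no measured fold. The OV-90 call was lost without library 2, 3, 13 or 15 (adjusted p 0.0695 to 0.108). OSMR (chromosome 5, 38845960 to 38945698, plus strand), which pairs with IL6ST to bind oncostatin M, had the narrowest span of group means of the 10 genes (6.08 to 7.66). In EFO-21 its parental libraries were at 6.76 to 6.87 and its resistant ones at 6.03 to 6.13, a log2 change of -0.73 (adjusted p = 0.00039) that was below 2-fold. In OVSAHO the change had the opposite sign, at 0.43 (adjusted p = 0.00902), with changes of 0.22 in Kuramochi and -0.01 in OV-90 (adjusted p = 0.402 and 0.975). The end of OSMR overlaps RICTOR on the opposite strand, which was called higher in OV-90 (2.00, adjusted p = 0.0182), but not without library 13, 14 or 15 (1.89 to 2.12, adjusted p 0.068 to 0.0861).

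STAT3 (chromosome 17, 40465342 to 40540558, minus strand), the transcription factor at which these receptors converge, was not called in any line. In OV-90 it went from 6.21 and 6.50 to 6.95, 6.91 and 7.16, a log2 change of 0.66 (adjusted p = 0.0315) with no overlap. Without library 2, 13, 14 or 15 its adjusted p was 0.0627 to 0.113, with log2 changes of 0.51 to 0.70. In EFO-21 it went from 8.39, 8.26 and 8.25 to 7.85, 7.86 and 7.91, a log2 change of -0.42 (adjusted p = 0.00106), also with no overlap. These differences of opposite sign were both smaller than 2-fold. Kuramochi gave 0.38 (adjusted p = 0.0659) and OVSAHO 0.05, where the 95% interval of -0.08 to 0.17 lies well inside 2-fold. RNA levels carry no information on STAT3 phosphorylation.

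SOCS2 (chromosome 12, 93963590 to 93977263, plus strand) encodes a suppressor of cytokine signalling best known as a brake on growth hormone signalling through STAT5. It had the largest changes of the 10 genes and was called higher in 3 of the 4 lines, as were 0.619% of all genes. In Kuramochi its parental libraries were at 0.80, 0.95 and 1.27 and its resistant libraries at 4.96, 5.33 and 5.60. All 3 parental values lay at or below the 10th percentile of their library, so the difference of 4.29 (SE 0.25, adjusted p = 5.75e-05) is a rise from the floor of the table, of which the true fold is unknown. In OVSAHO the parental libraries were at 3.06, 3.21 and 3.20 and the resistant ones at 6.55, 6.62 and 6.41, a 10.4-fold rise (log2 change 3.37, SE 0.12, adjusted p = 5.64e-05). In EFO-21 they were at 2.42, 2.08 and 1.99 and at 3.19, 3.57 and 3.30, a log2 change of 1.19 (SE 0.19, adjusted p = 0.00388). The parental values of 2.08 and 1.99 lay near the floor of the table, so the size of this rise is uncertain. Resistant and parental libraries did not overlap in any of these 3 lines. OV-90 was the exception, with 2.66 and 2.64 in parental and 3.16, 3.16 and 2.57 in resistant libraries (log2 change 0.31, adjusted p = 0.38). The 3 calls held with each library left out in turn, with log2 changes of 4.14 to 4.46, 3.32 to 3.43 and 1.08 to 1.32. Resistant EFO-21 (3.35 ± 0.20) reached the level that parental OVSAHO already had (3.16 ± 0.08), the ranges of the pair overlapping by a small margin.

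SOCS2-AS1, a noncoding gene on the opposite strand, overlaps the first 1955 bases of SOCS2. Its libraries went from 0.45, 0.28 and 0.42 to 3.88, 3.57 and 4.15 in Kuramochi and from 2.93, 1.86 and 2.23 to 5.15, 4.95 and 4.70 in OVSAHO. Both changes were called (3.48, adjusted p = 7.37e-05, and 2.59, adjusted p = 0.00222), the first from parental values at the floor of the table that give no measured fold. SOCS2-AS1 was not called in EFO-21 (0.85, adjusted p = 0.114) or OV-90 (0.27, adjusted p = 0.764). Its parental and resistant means there, 0.35 and 1.20 in EFO-21 and 1.29 and 1.56 in OV-90, also lay at the floor. These changes are not measured folds either. The libraries were made with a stranded kit, but whether the exon counts used the strand is not given in the sources used here, so reads in the overlap cannot be told apart. Among 9458 genes with an SD of at least 1 over the 8 group means, the patterns nearest to SOCS2 by Pearson correlation were those of BEND4 (r = 0.97), SOCS2-AS1 (r = 0.96) and SFRP1 (r = 0.914). BEND4 had log2 changes of 4.36 in Kuramochi, 3.62 in OVSAHO, -0.27 in OV-90 and -0.27 in EFO-21, and SFRP1, a secreted inhibitor of Wnt signalling, of 4.49, 1.87, -0.52 and 0.15 in the same order. For IL11 the nearest were LOC101927040 (r = 0.975), RUNX1T1 (r = 0.964) and AHR (r = 0.932), with log2 changes of 2.05, 2.90 and 0.69 in Kuramochi, 0.21, -0.26 and -0.01 in OVSAHO, 2.73, 2.68 and 2.30 in OV-90, and 0.45, -0.03 and -1.16 in EFO-21. These correlations are descriptions over 8 group means, of which some of SOCS2 and SOCS2-AS1 lie at the floor of the table.

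**Figure D3:**
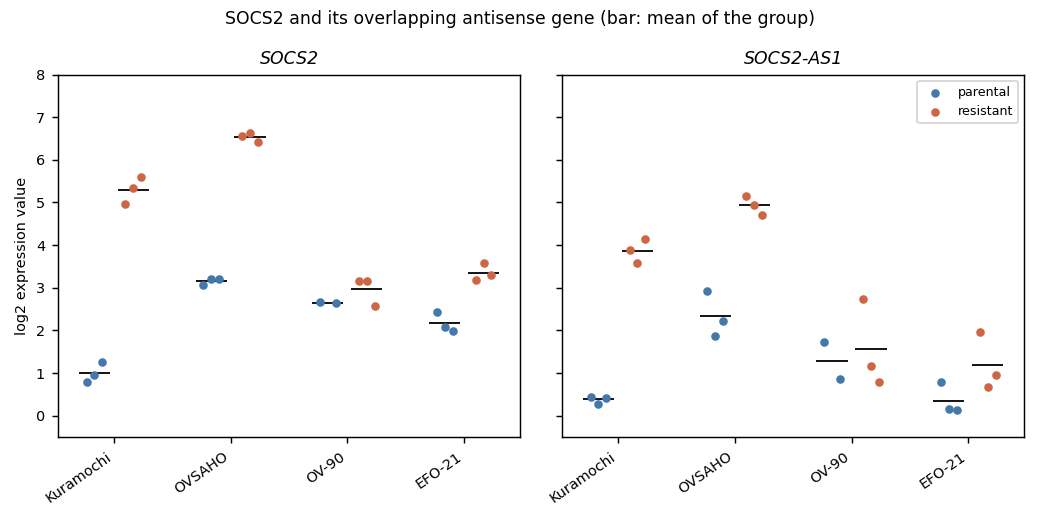
Log2 expression value (y axis) of SOCS2 and of the antisense gene SOCS2-AS1 in each library by cell line (x axis), with parental libraries in blue, resistant libraries in orange and a bar at the mean of the group. Both genes are higher in resistant Kuramochi (means 5.30 and 3.87) and OVSAHO (6.53 and 4.93) than in the parental libraries.

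SOCS1 and SOCS3, the family members that bind JAK kinases directly, were not called in any line. SOCS3 (chromosome 17, 76352859 to 76356158, minus strand) was highest in parental Kuramochi (10.01 ± 0.10) and parental OVSAHO (9.98 ± 0.11). In Kuramochi it went from 10.08, 9.90 and 10.06 to 9.34, 9.27 and 9.46, a log2 change of -0.65 (adjusted p = 0.000911) without overlap. EFO-21 gave 8.81, 8.87 and 8.79 against 8.20, 8.28 and 7.85, a log2 change of -0.72 (adjusted p = 0.00352), again without overlap and below 2-fold. In Kuramochi, the changes of SOCS3 and SOCS2 thus had opposite signs, as they did in EFO-21. In OVSAHO and OV-90 SOCS3 had changes of -0.14 and 0.23 (adjusted p = 0.213 and 0.43) with overlapping groups. SOCS1 (chromosome 16, 11348274 to 11350061, minus strand) lies wholly inside RMI2 on the opposite strand, and RMI2 was at group means of 7.56 to 10.64. Its own libraries spread widely within groups, for example 3.48, 4.93 and 3.00 in parental OVSAHO and 7.19, 5.92 and 5.49 in resistant EFO-21. Its log2 changes of 0.51, 0.09, 0.24 and -0.82 in Kuramochi, OVSAHO, OV-90 and EFO-21 had adjusted p of 0.136 to 0.916. Without resistant library 22 the EFO-21 change was -1.31 and was called (adjusted p = 0.0102).

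The change with resistance differed between the 4 lines for 9 of the 10 genes by a moderated F-test in one limma fit of the 8 group means, as it did for 75.1% of all genes. SOCS1 was the gene that did not pass (adjusted p = 0.22). For SOCS2 (adjusted p = 4.98e-09) each line also differed from the mean of the other 3, by 2.66 in Kuramochi and 1.44 in OVSAHO and by -2.64 in OV-90 and -1.47 in EFO-21 (adjusted p = 2.97e-08, 0.000158, 3.3e-07 and 7.71e-05). The IL6 change in Kuramochi exceeded that mean by 2.19 (adjusted p = 1.48e-05), and the LIF change lay 1.22 above it in Kuramochi (adjusted p = 7.62e-05) and at -1.32 relative to it in EFO-21 (adjusted p = 5.9e-05). IL11 and IL6ST stood out upward in OV-90 (1.87 and 1.59, adjusted p = 0.000537 and 0.00744) and downward in EFO-21 (-1.29 and -1.53, adjusted p = 0.00641 and 0.00698). In EFO-21 the changes of STAT3 (-0.78, adjusted p = 5.03e-05) and OSMR (-0.94, adjusted p = 0.00048) also lay below the mean of the other lines. For SOCS3, EFO-21 (-0.53, adjusted p = 0.00978) and Kuramochi (-0.44, adjusted p = 0.0207) lay below that mean and OV-90 above it (0.73, adjusted p = 0.00132). Such a difference from the other lines is common in this table, at 54.1% of all genes for Kuramochi, 30.3% for OVSAHO, 50.4% for OV-90 and 42.2% for EFO-21. Averaged over the lines, only SOCS2 was called (2.40, SE 0.36, adjusted p = 7.19e-05), against 6.09% of all genes. SOCS2 in parental Kuramochi and IL6 in OVSAHO lay at the floor of the table. The sizes of the SOCS2 and IL6 differences between lines, and of the SOCS2 average, are therefore uncertain. IL11 had an average change of 0.96 (SE 0.25, adjusted p = 0.00567), just below 2-fold. Its change was positive in all 4 lines, but only 0.40 in OVSAHO and 0.07 in EFO-21 (limma adjusted p = 0.333 and 0.897). In EFO-21 it turned negative without library 12 or 22.

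Parental levels differed between the lines for all 10 genes, as for 95.6% of all genes. Parental EFO-21 was the highest of the 8 groups for IL6 (7.51 ± 0.08), LIF (8.04 ± 0.12), IL6ST (8.87 ± 0.15) and SOCS1 (7.01 ± 0.31), and parental OV-90 was the lowest for IL6ST (5.17 ± 1.05, n = 2), STAT3 (6.35 ± 0.21) and SOCS3 (7.01 ± 0.26). For IL6 the order was EFO-21, Kuramochi, OV-90 and OVSAHO, and among the 8 groups the 4 of OV-90 and OVSAHO overlapped with their neighbours in the order, as did the EFO-21 pair. For SOCS2 the ranges separated resistant OVSAHO, resistant Kuramochi and then a run of overlapping groups (resistant EFO-21, parental OVSAHO, and both OV-90 groups), followed by parental EFO-21 and last by parental Kuramochi. SOCS1 was the least ordered, with 6 of its 7 neighbouring pairs overlapping, while IL6R and STAT3 had 2 of 7.

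Of 70 other genes of the pathway, 62 were measured, and 12 were called in Kuramochi (7 higher, 5 lower), 3 in OVSAHO (2 higher, 1 lower), 11 in OV-90 (9 higher, 2 lower) and 12 in EFO-21 (2 higher, 10 lower). These shares, 19.4%, 4.84%, 17.7% and 19.4%, stand against 22.5%, 7.76%, 16.1% and 14.3% of all genes, with no test of the difference. In Kuramochi the largest rises were of IL1B (3.78, adjusted p = 0.00114), an inducer of IL6 whose parental libraries of 1.05 to 2.82 reached the floor of the table, so that its fold is uncertain, and of CNTFR (3.63, adjusted p = 8.87e-06), the receptor for ciliary neurotrophic factor. TNF, another inducer of IL6, fell there to the floor of the table (4.66 to 0.77, adjusted p = 4.33e-05), in the opposite direction to IL1B. LRG1, an acute phase glycoprotein, fell by 4.38 on the log2 scale (adjusted p = 0.00182). Its resistant libraries of 1.18 to 3.59 reached the floor of the table, so this fold is uncertain too. JAK2, a kinase that binds IL6ST and the growth hormone receptor, rose (1.61, adjusted p = 0.000355). In OVSAHO, CNTFR rose by 1.16 (adjusted p = 0.00298) and the acute phase gene SAA2 fell (-1.01, adjusted p = 0.0162). The SAA2 call was lost without library 7, 20 or 21 (-0.97, -1.02 and -0.82, adjusted p = 0.0535, 0.0527 and 0.0339).

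In OV-90 the list of receptors and sheddases had 3 of 6 measured genes called, all higher, against 9.5% of all genes called higher. A sheddase was among the 3, as was CNTFR, whose parental libraries of 1.74 and 1.95 lay near the floor of the table. Of the kinases and other STATs, 0 of 10 were called by limma (6 with an unadjusted p under 0.05). Of the other ligands, 0 of 5 were called (0 with an unadjusted p under 0.05). LIFR, the partner of IL6ST for LIF, rose by 2.23 (adjusted p = 0.0119), beside the rise of IL6ST. NFKBIZ, a nuclear co-activator of IL6 transcription, rose by 1.99 (adjusted p = 0.021). IL6 itself was at 2.43 ± 0.22 and 1.99 ± 0.38, with 1 resistant library at the floor of the table. SOCS4 and SOCS6 rose by 1.23 and 1.04 (adjusted p = 0.0252 and 0.0221), TIMP1 fell by 1.26 on the log2 scale (adjusted p = 0.011), and LBP was called lower (adjusted p = 0.0372) with group means of 1.63 and 0.52 at the floor of the table. None of these OV-90 calls held when resistant library 13, 14 or 15 was left out, where 1.43% to 1.96% of all genes were called. Among the 62 genes, 0 were then called by limma and 22 to 24 had an unadjusted p under 0.05. No share of all genes at an unadjusted p is given. The unadjusted counts, here and for the kinases and ligands above, are therefore not a result about these genes. The log2 changes stayed about as large, at 2.10 to 2.34 for LIFR, 1.93 to 2.04 for NFKBIZ and -1.32 to -1.21 for TIMP1. The calls of SOCS4 (0.94, adjusted p = 0.0463) and LBP (-1.11, adjusted p = 0.0976) were also lost without parental library 2, and those of SOCS6 (0.86, adjusted p = 0.0266) and LBP (-1.10, adjusted p = 0.0753) without parental library 3. In EFO-21 the acute phase and target list had 5 of 22 genes called and the inducer list 3 of 6, all lower, against 7.15% of all genes called lower, and neither list had a test. SAA1 fell from 10.70 to 6.12 (adjusted p = 6.81e-06) and SAA2 from 9.76 to 5.31 (adjusted p = 8.58e-05). These genes are near-identical copies, and how the authors divided shared reads is not given in the sources used here. JAK1, the main kinase of IL6ST, fell by 1.02 on the log2 scale (adjusted p = 4.37e-05), in the same line in which LIF fell and OSMR, STAT3 and SOCS3 had their negative changes below 2-fold. CISH, a relative of SOCS2 induced by STAT5, rose (1.09, adjusted p = 0.000645), as did IL11RA (1.05, adjusted p = 0.00259), which fell in Kuramochi from 8.39 to 6.85 (-1.54, adjusted p = 0.000338). IL11RA was below 2-fold without parental library 11 (0.93, adjusted p = 0.00627), and JAK1 was marginally below it without parental library 10 (adjusted p = 0.000573). Over all 6 lists the median log2 change was 0.18, 0.13, 0.23 and 0.01 in Kuramochi, OVSAHO, OV-90 and EFO-21.

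**Figure D4:**
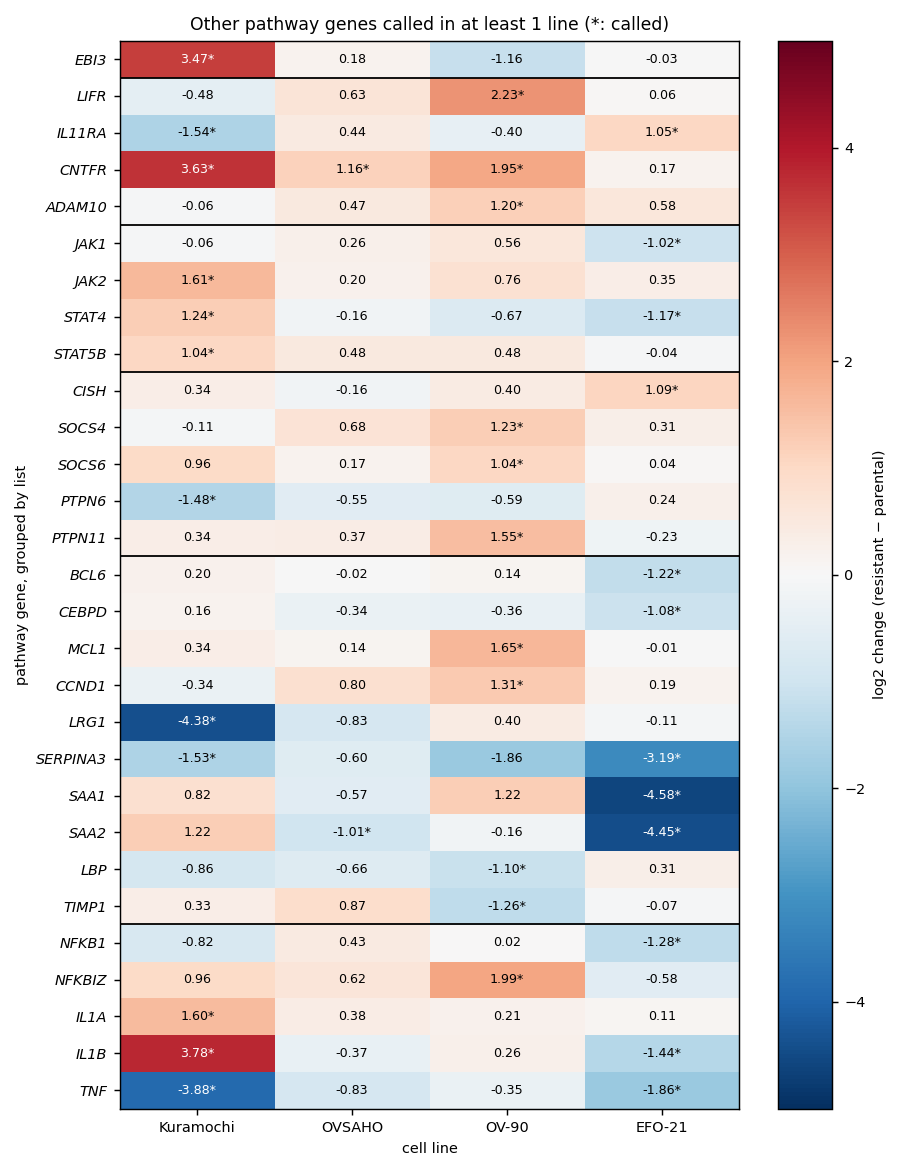
Log2 change (resistant minus parental, color scale) of other pathway genes called in at least 1 line (rows, grouped by list) in the 4 lines (columns), with an asterisk on called changes. EFO-21 shows blue for SAA1 (-4.58) and SAA2 (-4.45), and Kuramochi shows red for IL1B (3.78) and CNTFR (3.63) beside blue for TNF (-3.88) and LRG1 (-4.38). Values of IL1B, TNF and LRG1 in Kuramochi reached the floor of the table, so their folds are uncertain.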

How the data were processed

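Total RNA from the 23 cultures was made by the authors into stranded mRNA libraries (TruSeq) and sequenced as paired reads on a HiSeq4000. Alignment by the authors was to GRCh37/hg19 (with an aligner spelled GSNP in their methods), exons with few reads in most samples were dropped, and robust linear modelling of exons and junctions gave 1 value per gene. What was deposited is on the log2 scale, after quantile normalization by the authors. The table marks 16448 of 21658 genes as model values and 5210 as means of log2 exon values, and all 10 genes described here are model values. Read counts were not used here, so depth is unknown and no counting error is given. Columns name the line, the form and a library number from 2 to 24, so libraries were assigned to groups and not to single samples, and 0 columns belonged to other samples. Of the genes, 20745 (95.8%) matched a RefSeq symbol by Gene ID. Positions come from GENCODE lifted to GRCh37.

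Each line was fitted alone with limma 3.58.1 in R 4.3.3 (lmFit, eBayes with trend, no filter, no pseudocount), with two-sided p adjusted over all genes by Benjamini-Hochberg. Differences between lines and between parental levels were tested in one fit of 8 group means, and average changes with the line as an additive term. Errors after ± are SDs over libraries. The smallest exact two-sided permutation p at 3 against 3 libraries is 0.1, so none is reported for single genes, and p-values measure only the spread between the replicates as labelled. The fits were tested on simulated data. Alternatives were a joint fit, no trend, a filter on low values, recentring, other fold thresholds and leaving out each library.

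The 10 genes and all lists were chosen with earlier results of these data known. Named besides the 10 were, from 6 pathway lists, the called genes with the 2 largest rises and 2 largest falls in each line, every called gene among the other SOCS genes, CISH, LIFR and selected JAK-STAT genes, the 3 genes most like each member called in at least 2 lines, marker genes, and annotated genes overlapping a member (the last chosen after their values were seen). A gene that this rule names is not reported here by name, and is counted in its list. Levels of the marker lists for leukocytes, fibroblasts and endothelium were summed per group. The LYZ level reached 12.46 and the LUM level 13.21 in OV-90, and the summed leukocyte, fibroblast and endothelial markers ranged from 17.5 to 41.8, 14.1 to 41.3 and 2.8 to 24.3 over the libraries.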

Additional observations from a re-analysis of the deposited data

Results flagged for a closer look

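The change with resistance differed between the 4 lines for 9 of the 10 genes by limma's moderated F-test over all genes, a difference that 75.1% of all genes showed. The adjusted p was 4.98e-09 for SOCS2, with log2 changes of 4.29, 3.37, 0.31 and 1.19 in Kuramochi, OVSAHO, OV-90 and EFO-21. It was 2.99e-05 for LIF (0.86, 0.12, -0.15 and -1.04), 4.26e-05 for STAT3 (0.38, 0.05, 0.66 and -0.42) and 5.58e-05 for IL6 (2.25, 0.65, -0.44 and -0.02). The SOCS2 change in Kuramochi and the IL6 change in OVSAHO rest on floor values, which give no measured fold. For IL11 it was 0.000651 (1.22, 0.40, 2.44 and 0.07), for SOCS3 0.000777 (-0.65, -0.14, 0.23 and -0.72), for OSMR 0.000884 (0.22, 0.43, -0.01 and -0.73) and for IL6R 0.00108 (0.75, -0.62, 0.32 and 0.27). IL6ST had the highest of the 9, at 0.00692 (0.69, 0.95, 2.03 and -0.30), with up to 0.0322 when 1 library was left out. With 2 or 3 libraries a group, single libraries were not tested for standing apart.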

How the results depend on the processing

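Of 382 refits of single changes of the 10 genes, 362 kept direction and call, 8 lost a call, 3 gained one and 9 reversed in sign. All 20 that differed came from leaving out 1 library. The reversals concerned changes with no call on either side, whose log2 change over the libraries left out ran from -0.31 to 0.66 for SOCS1 in OVSAHO, -0.00503 to 0.52 for SOCS1 in OV-90, -0.36 to 0.10 for LIF and -0.33 to 0.32 for OSMR in OV-90, -0.058 to 0.015 for IL6 in EFO-21 and -0.22 to 0.32 for IL11 in EFO-21. Leaving out each library gave 3 to 4 called genes of the 10 in Kuramochi, 1 to 2 in OVSAHO and 1 to 3 in EFO-21. Of all genes, 21% to 22.6%, 6.85% to 7.79% and 13.2% to 13.6% were called in these refits. In OV-90, leaving out a resistant library gave 0 called genes of the 10, where 1.43% to 1.96% of all genes were called. It gave 11 to 13, 2 to 3, 0 to 18 and 11 to 12 called pathway genes, 9 to 10 of the 10 genes whose change differed between lines, and 1 to 2 changed on average. OV-90 lost its calls of IL11 and IL6ST without resistant library 13, 14 or 15, which leaves 2 libraries a group. Without a parental OV-90 library the lone one is assumed to vary like the resistant ones, so counts of called genes are not given for those refits. The filter on low values (mean above the 25th percentile) left out SOCS2 and IL11 by construction, so that 1, 0, 1 and 1 of the remaining 8 were called in Kuramochi, OVSAHO, OV-90 and EFO-21 and 0 on average. At 1.5-fold the calls were 6 in Kuramochi, 2 in OVSAHO, 3 in OV-90 and 4 in EFO-21. Pathway genes called at 1.5-fold were 24, 11, 20 and 17 in the same order. No share of all genes is given at 1.5-fold or after the filter, so these counts are not a result about the genes described. With no fold threshold the calls were 6, 3, 3 and 5, with 30, 28, 24 and 31 pathway genes, in the same order. Of all genes, 46.9%, 33.3%, 36% and 48.4% then passed. One fit of 23 libraries, no mean-variance trend and recentring changed no call of the 10 genes. Changes below 2-fold did depend on the fit. In the one fit, limma's adjusted p in OVSAHO rose from 0.00208 to 0.0606 for IL6ST and from 0.00902 to 0.0543 for OSMR. It fell from 0.0659 to 0.0052 for STAT3 in Kuramochi and from 0.089 to 0.0182 for IL6R in OVSAHO. No paired analysis was possible because the columns carry library numbers but no replicate numbers. Depth is unknown, so precision rests on 2 or 3 libraries a group. Values at the floor of the table (IL6 in OVSAHO, SOCS2 in parental Kuramochi) do not give fold changes. Groups with some values at or near it (IL6 in resistant OV-90, SOCS2 in parental EFO-21) give uncertain ones.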
